A study of Mus musculus with 20 samples.

Results

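A list of 35 mouse genes for the liver's extracellular matrix and for its hepatic stellate cells was followed across livers of 2 genotypes on 2 diets. Every probe set whose annotation named exactly one of these genes was taken, which gave 59 probe sets for 32 of the 35 genes, out of 28898 such probe sets for 17097 genes on the array. Fbn1, Thbs1 and Tagln had no probe set of their own by this rule and are not analysed here. Where a gene had more than 1 probe set, as 18 members did, the brightest one, by its mean across the 20 arrays, stands for it, and the others are given where they differ.

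Liver RNA of 20 mice aged 11 weeks was hybridised to Affymetrix arrays, 1 array per mouse and 5 mice per group. The groups were progeroid mice (Ercc1Δ/-) with restricted food, progeroid mice with the control diet, wild type littermates with restricted food and wild type littermates with the control diet. All mice were first-generation hybrids of C57BL6J and FVB parents and ate the same synthetic pellets. Food was reduced by 10% at an age of 7 weeks and by 30% from 9 weeks on. At full restriction wild type mice received 2.1 g per day, against 3.0 g eaten by freely fed wild type mice. Ercc1 encodes a subunit of a nuclease used in nucleotide excision repair and crosslink repair, and the Ercc1 alleles were inherited through the germline, so they were carried by every cell type of the liver. As a check of the labels, Ercc1 had log2 RMA values of 4.80 ± 0.24 in restricted and 5.30 ± 0.15 in control-fed progeroid livers, against 6.15 ± 0.12 in restricted and 6.54 ± 0.07 in control-fed wild type livers (SD, n = 5 each, as for every mean ± SD given here). The highest progeroid liver was at 5.55 and the lowest wild type liver at 6.04. The hepatocyte factor Hnf4a had group means between 11.75 and 12.12, on arrays whose values ran from 2.19 to 14.51.

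The extracellular matrix is the network of collagens, proteoglycans and glycoproteins that cells secrete around themselves. In the healthy liver much of it is made by hepatic stellate cells, which store vitamin A as retinyl esters and lie between hepatocytes and the sinusoidal endothelium, and by fibroblasts of the portal tracts. On injury stellate cells can turn into contractile myofibroblasts that secrete fibrillar collagen, a step that TGF-beta and platelet-derived growth factor drive, while metalloproteinases and their inhibitors set how much matrix is removed.

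Progeroid livers had higher levels of a share of these genes on both diets, and no member was lower in them at the threshold used. Values are log2 RMA values throughout, differences are given with their standard error (SE) from limma, and rose or fell is written of a member only where its p, adjusted over all 17097 genes, was under 0.05. On the control diet 8 of 32 members (25%) rose in progeroid livers, against 6.70% of all genes, and 0 fell, against 4.32% of all genes. At an unadjusted p under 0.05 the members that differed were 14, where 24.3% of all genes did. The median difference was 0.215 over the members and -0.0138 over all genes. On the restricted diet 10 members (31.2%) rose in progeroid livers, against 11.8% of all genes, and 0 fell, against 5.44%. There 17 members had an unadjusted p under 0.05, as had 29.7% of all genes. The median difference was 0.303 over the members and -0.00261 over all genes. With each array centred on its median over the 17097 genes, the restricted comparison gave 10 higher and 3 lower members. The lower ones were Col1a2, Mmp14 and Timp3. Over all 17097 genes that setting gave 1158 higher and 6513 lower. These are RNA levels of whole liver, in which more cells of a type cannot be told apart from more RNA per cell.

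Restriction itself moved few members, a share near that of all genes. In progeroid livers 2 members (6.25%) rose with restriction, against 6.94% of all genes, and 0 fell, against 5.07%. In wild type livers 4 members (12.5%) rose, against 9.92% of all genes, and 3 fell (9.38%), against 12.6%. At an unadjusted p under 0.05 restriction gave 7 members in progeroid and 9 in wild type livers, where it gave 25.2% and 33% of all genes. The median effect of restriction was -0.012 in progeroid and -0.0684 in wild type livers over the members, and -0.0140 and -0.0304 over all genes. The difference between the diet effects of the genotypes passed for 0 members in either direction, where 1.03% of all genes had a more positive and 0.374% a more negative effect in progeroid mice. At an unadjusted p under 0.05, 4 of the 32 members differed in their diet effect, as did 14.2% of all genes, and the lowest adjusted p was 0.184, for Col1a1. Without animal 421 of the wild type restricted group the lowest were 0.05002, for Vim (0.67), and 0.0909, for Col1a1 (0.31). Restricted progeroid livers set against control-fed wild type livers had 12 members higher (37.5%), against 13.9% of all genes, and 0 lower, against 11.5%. That count became 7 higher and 2 lower (Col1a2 and Col14a1) with median-centred arrays, and 7 higher without wild type control animal 404. Counted by probe set and adjusted over all probe sets, 14 of the members' 59 were higher and 1 lower in this comparison. For restriction in wild type livers 6 of the 59 were higher and 6 lower.

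**Figure D1:**
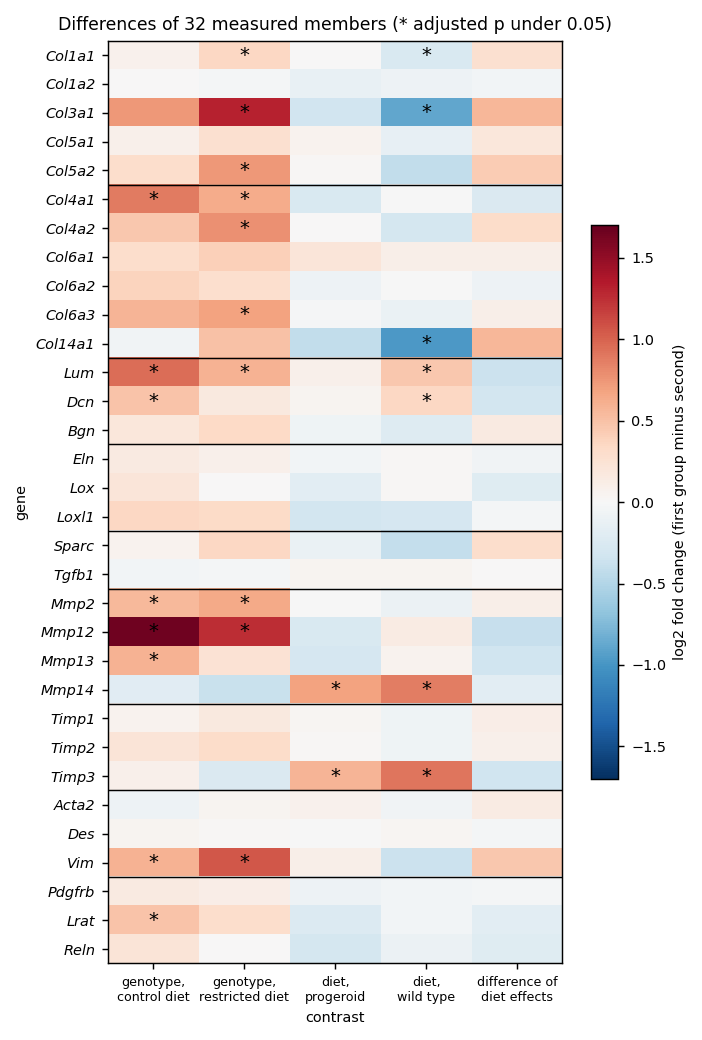
Log2 fold change of the 32 measured genes (rows, grouped by role with lines between the groups) in 5 contrasts (columns), red where the first-named group was higher and blue where it was lower. Stars mark an adjusted p under 0.05: 8 and 10 genes in the 2 genotype columns, 2 and 7 in the 2 diet columns, and 0 in the difference of diet effects.

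One wild type liver bears on several results. Animal 421 of the wild type restricted group stood above the other 4 of its group for Col3a1 and Vim, and by less for Timp2, Col6a1, Col14a1, Bgn, Lum and Mmp2 among others. Values without it are given beside the results that it moves. Over all 32 members its mean deviation from the wild type control mean was 0.195, and the other 4 lay between -0.317 and -0.0462. Its Kupffer cell markers were not high in the same way, with a mean deviation of -0.422 within a group range of -0.627 to -0.0483.

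Among the fibrillar collagens, which form the tensile fibres of the matrix, Col3a1 moved most. Type III collagen, the product of Col3a1, forms the reticular fibres of the liver. Col3a1 was at 8.78, 8.87, 9.44, 9.60 and 8.98 in progeroid restricted livers, against 8.96, 7.08, 7.40, 7.60 and 8.10 in wild type restricted livers, each list in order of animal number as in all lists of values given here. Every progeroid liver was above 4 of the 5 wild type ones, and animal 421 fell among the progeroid values. With control food the values were 9.06, 9.56, 9.65, 9.88 and 9.12 in progeroid and 8.45, 8.71, 8.81, 8.16 and 9.45 in wild type livers, with overlap through a single wild type animal, 405. Under restriction Col3a1 was higher in progeroid than in wild type livers by 1.30 ± 0.29 (adjusted p = 0.0031), a 2.47-fold difference, and by 1.59 without animal 421. With control food its difference of 0.74 ± 0.29 did not pass (adjusted p = 0.111), with a 95% interval of 0.14 to 1.34. It passed without wild type animal 405, at 0.92 (adjusted p = 0.0447), or 421, at 0.74 (adjusted p = 0.0446).

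With restriction Col3a1 fell in wild type livers by 1.85-fold, a log2 difference of -0.89 ± 0.29 (adjusted p = 0.0312), and its value in progeroid livers was -0.32 ± 0.29 (adjusted p = 0.538). Without animal 421 the wild type difference was -1.17. Leaving out 6 other wild type animals in turn took the adjusted p of that fall to between 0.053 and 0.0978. The second Col3a1 probe set, whose mean level was 3.82, gave a difference of 0.57 between restricted genotypes (adjusted p = 0.0312) but only -0.08 for restriction in wild type livers (adjusted p = 0.792 over all probe sets). The fall of Col3a1 with restriction therefore rests on 1 of its 2 probe sets.

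Col5a2, a chain of the type V collagen that starts fibril assembly and a neighbour of Col3a1 on its chromosome in the GRCm38.p6 annotation, was at 5.53, 5.61, 6.08, 6.08 and 5.50 in progeroid restricted livers, against 5.00, 4.94, 4.91, 5.58 and 4.69 in wild type restricted livers. Only wild type animal 424 reached the progeroid values, and the difference was 0.74 ± 0.18 (adjusted p = 0.00638). On the control diet Col5a2 was at 5.25, 5.85, 5.81, 6.10 and 5.68 in progeroid and 5.48, 5.80, 5.56, 4.99 and 5.35 in wild type livers, which overlapped widely, with a difference of 0.30 ± 0.18 (adjusted p = 0.326). Its diet difference in wild type livers, -0.41, passed without animal 404 (-0.53, adjusted p = 0.0444) or 424 (-0.55, adjusted p = 0.0254). Col5a1, the other type V chain measured, differed by 0.08 ± 0.18 on the control diet and 0.28 ± 0.18 on the restricted diet and passed in neither.

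The 2 chains of type I collagen, the main collagen of scar tissue, were both in the lower part of the scale. Col1a1 was at 3.87, 3.71, 3.96, 4.02 and 3.84 in progeroid restricted livers, against 3.68, 3.36, 3.43, 3.64 and 3.52 in wild type restricted livers, 2 sets that did not overlap. In the control diet groups it was at 3.93, 3.85, 3.95, 3.72 and 3.88 in progeroid and 3.74, 3.80, 3.80, 3.82 and 3.79 in wild type livers. It was the wild type restricted group that lay below the other 3. Col1a1 was higher in progeroid livers under restriction by 0.35 ± 0.07 (adjusted p = 0.00133) and fell with restriction in wild type livers, by 1.20-fold (-0.26 ± 0.07, adjusted p = 0.00871). Its difference in diet effect, 0.28 ± 0.10, had the lowest adjusted p of any member and did not pass. Col1a2 had group means between 2.80 and 2.93 and passed in no contrast; near the lower end of the scale RMA understates folds. Of the 5 fibrillar collagens 3 (60%) were thus higher in progeroid than in wild type livers under restriction, against 11.8% of all genes. On the control diet the smallest adjusted p was that of Col3a1. Restricted progeroid against control-fed wild type livers gave 0 higher, against 13.9% of all genes. Restriction raised 0 of them in progeroid livers, against 6.94%. Their mean deviation from the wild type control mean was 0.169 in progeroid restricted, 0.24 in progeroid control and -0.357 in wild type restricted livers.

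Of the type IV collagens, Col4a1 rose in progeroid livers on both diets and Col4a2 on the restricted diet. Col4a1 and Col4a2 encode the chains of the most widespread type IV collagen, the sheet-forming collagen of basement membranes, and lie next to each other in opposite directions. Col4a1 was at 7.89, 7.86, 7.84, 8.12 and 7.81 in progeroid restricted livers, against 7.32, 6.73, 7.65, 7.30 and 7.37 in wild type restricted livers. With control food it was at 8.11, 8.08, 8.57, 8.20 and 7.87 in progeroid livers, against 7.20, 7.46, 7.27, 6.88 and 7.61 in wild type livers. No progeroid value met a wild type value on either diet. The differences were 0.88 ± 0.15 on the control diet (adjusted p = 0.00053) and 0.63 ± 0.15 on the restricted diet (adjusted p = 0.00577), or 1.84-fold and 1.55-fold. With restriction Col4a1 differed by -0.26 ± 0.15 in progeroid and -0.01 ± 0.15 in wild type livers, neither past the threshold. A dimmer Col4a1 probe set gave 0.64 under restriction (adjusted p = 0.0169) and 0.53 on the control diet (adjusted p = 0.0641).

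Col4a2 was at 7.67, 7.69, 7.76, 7.94 and 7.38 in progeroid restricted livers, against 7.16, 6.33, 7.14, 7.17 and 6.78 in wild type restricted livers, again without overlap. The control diet values were 7.44, 7.57, 8.08, 7.96 and 7.34 in progeroid and 7.18, 7.16, 7.21, 6.93 and 7.58 in wild type livers. The difference was 0.77 ± 0.17 under restriction (adjusted p = 0.00285) and 0.46 ± 0.17 on the control diet (adjusted p = 0.0841), where it passed only when wild type animal 405 or 422 was left out (adjusted p = 0.0435 and 0.0429). Across the 20 livers the deviations of Col4a1 and Col4a2 from their group means correlated at r = 0.835, given as a description over arrays that share their processing.

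Type VI collagen forms beaded filaments close to cells, from 3 chains. Col6a3 was at 6.45, 6.40, 6.50, 6.82 and 7.29 in progeroid restricted livers, against 6.31, 5.24, 6.11, 6.30 and 6.08 in wild type restricted livers, with no overlap. It was at 6.40, 6.53, 7.02, 7.03 and 6.59 in progeroid control livers, against 5.95, 6.20, 6.22, 5.71 and 6.56 in wild type control livers, which overlapped. The difference of 0.68 ± 0.21 under restriction passed (adjusted p = 0.0255) and that of 0.58 ± 0.21 on the control diet did not (adjusted p = 0.0754), though it did without wild type animal 405 or 422 (adjusted p = 0.0422 and 0.0332). Without wild type animal 422, the lowest of its group, the restricted difference was 0.49 (adjusted p = 0.0757), and it also missed the threshold without progeroid animals 368 or 369 (adjusted p = 0.0609 and 0.082). Col6a1 and Col6a2 passed between the genotypes on neither diet, with differences from 0.29 to 0.40. Col6a1 passed under restriction without animal 421 (0.52, adjusted p = 0.0295), and Col6a2 on the control diet without progeroid animal 327 (0.48, adjusted p = 0.0489). Col6a1 was at 4.91, 5.11, 5.21, 5.13 and 4.83 in progeroid restricted livers, against 4.74, 4.45, 4.46, 4.12 and 4.87 in wild type control livers, a difference of 0.51 ± 0.17 across genotype and diet together (adjusted p = 0.0305). That call was lost when any one of 6 animals was left out, with adjusted p-values between 0.0581 and 0.0918.

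Col14a1 encodes a collagen that sits on the surface of fibrils, and it fell with restriction in wild type livers. It was at 8.28, 7.04, 7.73, 7.12 and 7.83 in wild type restricted livers, against 8.48, 8.56, 8.63, 8.36 and 8.88 in wild type control livers. All 5 restricted livers were below the control ones, although animal 421 came close. The difference was -0.98 ± 0.20 (adjusted p = 0.00109), a 1.98-fold fall, and -1.15 without animal 421. In progeroid livers Col14a1 was at 7.57, 8.05, 8.43, 8.44 and 8.04 with restriction and 8.33, 8.54, 8.74, 8.67 and 8.37 on the control diet, which overlapped, and its difference of -0.42 ± 0.20 did not pass (adjusted p = 0.182). The diet effects differed between the genotypes by 0.56 ± 0.28 (95% interval -0.02 to 1.14), which did not pass either (adjusted p = 0.38). A second Col14a1 probe set fell by 0.80 with restriction in wild type livers (adjusted p = 0.00662), and the dimmest, at a mean level of 3.48, gave -0.11. Leaving out progeroid animal 362 or wild type animal 421 raised the genotype difference under restriction, 0.50 over all animals, to 0.64 and 0.68 and past the threshold (adjusted p = 0.0256 and 0.0121). Restricted progeroid against control-fed wild type livers gave -0.48 for Col14a1, which did not pass. There it passed as lower with median-centred arrays (-0.61, adjusted p = 0.0102), with the compared groups alone (adjusted p = 0.0426) and without animal 421 (adjusted p = 0.0449).

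The small leucine-rich proteoglycans coat collagen fibrils and set their diameter and spacing. Lumican, encoded by Lum, had the second-largest rise in progeroid livers on the control diet. Lum was at 8.90, 9.30, 9.48, 9.17 and 9.21 in progeroid restricted livers, against 8.99, 8.53, 8.64, 8.26 and 8.69 in wild type restricted livers, where only wild type animal 421 reached into the progeroid range. On the control diet it was at 9.10, 9.12, 8.81, 9.11 and 9.46 in progeroid livers, against 8.29, 8.09, 8.07, 7.94 and 8.46 in wild type livers, without overlap. The genotype difference was 0.95 ± 0.13 on the control diet (adjusted p = 7.01e-05) and 0.59 ± 0.13 on the restricted diet (adjusted p = 0.00385), or 1.93-fold and 1.51-fold, the second being 0.68 on the log2 scale without animal 421. Restriction raised Lum in wild type livers by 0.45 ± 0.13 (adjusted p = 0.0187), a call lost without animal 421 (0.36, adjusted p = 0.0553) or without wild type control animal 404 (0.40, adjusted p = 0.0544). In progeroid livers, already higher, the diet difference was 0.09 ± 0.13 (adjusted p = 0.728). Restricted progeroid livers exceeded control-fed wild type ones by 1.04 ± 0.13, or 2.06-fold (adjusted p = 9.44e-06).

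Decorin, the product of Dcn, binds collagen and TGF-beta, and its gene neighbours Lum. Dcn was at 11.54, 11.86, 11.92, 11.73 and 11.72 in progeroid restricted, 11.73, 11.68, 11.68, 11.54 and 11.92 in progeroid control, 11.67, 11.53, 11.55, 11.62 and 11.53 in wild type restricted and 11.27, 11.36, 11.14, 11.00 and 11.36 in wild type control livers. The 5 control-fed wild type livers lay below the other 15. Dcn was higher in progeroid livers on the control diet by 0.48 ± 0.08 (adjusted p = 0.000544) and rose with restriction in wild type livers by 0.36 ± 0.08 (adjusted p = 0.00391). Between the restricted genotypes the difference was 0.17 ± 0.08 (adjusted p = 0.175), and restriction in progeroid livers gave 0.04 ± 0.08 (adjusted p = 0.799). The diet effects of the genotypes differed by -0.31 ± 0.12 (95% interval -0.56 to -0.07), with an adjusted p of 0.215. Within groups, Lum and Dcn were each other's closest member, at r = 0.661 over the 20 livers. Biglycan (Bgn), the third of the family, averaged 9.68 ± 0.35 in progeroid restricted, 9.74 ± 0.26 in progeroid control, 9.34 ± 0.26 in wild type restricted and 9.56 ± 0.13 in wild type control livers and passed in no contrast. Without progeroid animal 362 it passed under restriction, at 0.47 (adjusted p = 0.0219).

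**Figure D2:**
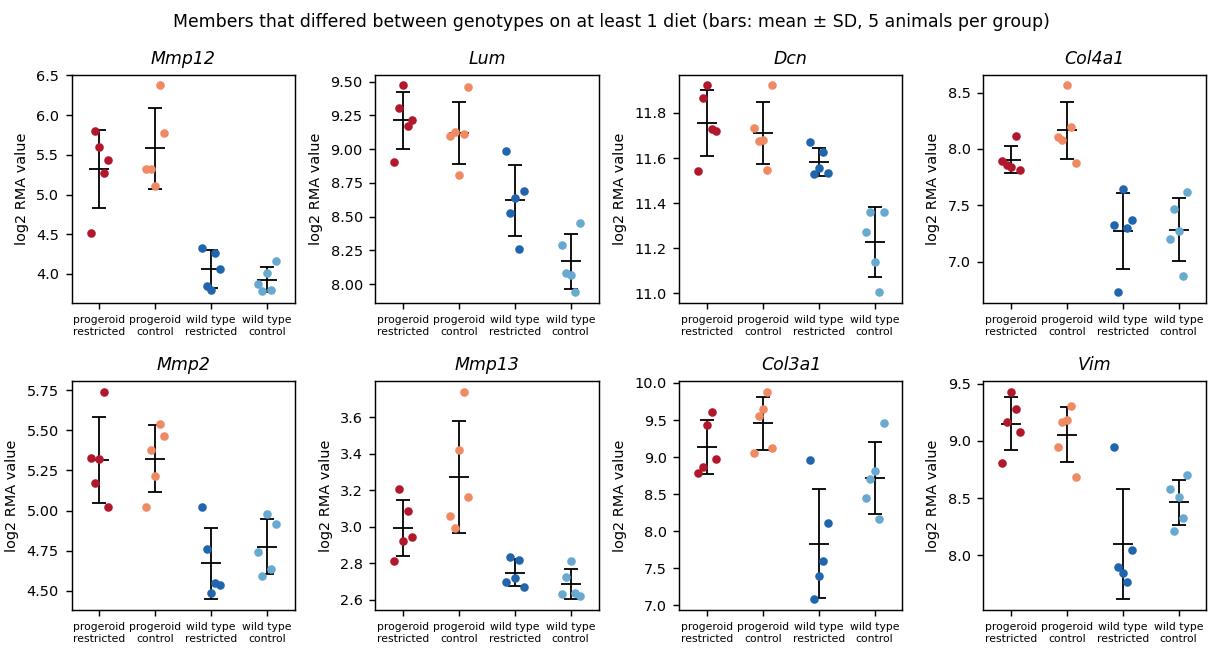
Log2 RMA values of 8 genes in every liver (points) with the mean and SD of each group (bars), 5 animals per group, progeroid groups left of wild type groups. For Mmp12 and Col4a1 every progeroid point lies above every wild type point, Dcn is lowest in control-fed wild type livers, and one wild type restricted point of Col3a1 and Vim, animal 421, stands far above the other 4.

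The genes of elastic fibres and of cross-linking passed in no contrast. Elastin (Eln), which gives tissue its recoil, differed between genotypes by 0.16 ± 0.12 on the control diet and 0.09 ± 0.12 on the restricted diet, and neither passed. Lox and Loxl1, enzymes that cross-link collagen and elastin, had group means of 3.46 to 3.67 and of 3.40 to 4.04. Lox differed between genotypes on the control diet by 0.21 ± 0.07 (adjusted p = 0.0713), and it passed without progeroid animal 327 or wild type animal 403 (adjusted p = 0.04999 and 0.0192). Loxl1 gave 0.36 ± 0.14 on the control diet (adjusted p = 0.125) and 0.32 ± 0.14 under restriction (adjusted p = 0.137), where it passed without progeroid animal 362 (0.43, adjusted p = 0.0332). Sparc, a secreted protein that binds collagen, differed by 0.06 ± 0.18 on the control diet and 0.35 ± 0.18 under restriction and passed in no contrast. A second Sparc probe set passed under restriction between the genotypes, at 0.45 (adjusted p = 0.0189), and with restriction in wild type livers, at -0.35 (adjusted p = 0.0496).

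Tgfb1, the ligand that drives collagen synthesis in stellate cells, averaged 3.73 ± 0.15 in progeroid restricted, 3.68 ± 0.27 in progeroid control, 3.77 ± 0.12 in wild type restricted and 3.72 ± 0.30 in wild type control livers. Its genotype differences were -0.04 ± 0.13 on the control diet (95% interval -0.32 to 0.24) and -0.04 ± 0.13 on the restricted diet (-0.31 to 0.24).

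Of the enzymes that cut matrix, 3 of 4 rose in progeroid livers on the control diet. Mmp12, the elastase that macrophages secrete, had the largest genotype difference of any member on the control diet. Its values were 4.52, 5.80, 5.60, 5.27 and 5.43 in progeroid restricted livers, against 4.33, 3.85, 3.80, 4.27 and 4.07 in wild type restricted livers. With control food they were 5.32, 5.32, 5.11, 6.38 and 5.77 in progeroid livers, against 3.87, 3.79, 4.02, 3.80 and 4.16 in wild type livers. The lowest progeroid liver, at 4.52, was still above the highest wild type liver, at 4.33. The difference was 1.65 ± 0.22 on the control diet (adjusted p = 3.39e-05) and 1.26 ± 0.22 under restriction (adjusted p = 0.00039), or 3.15-fold and 2.40-fold. With restriction Mmp12 differed by -0.26 ± 0.22 in progeroid (95% interval -0.71 to 0.20) and 0.13 ± 0.22 in wild type livers, neither past the threshold.

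Mmp13, the main interstitial collagenase of rodents and a neighbour of Mmp12, was at 3.06, 2.99, 3.42, 3.74 and 3.16 in progeroid control livers, against 2.63, 2.73, 2.81, 2.64 and 2.62 in wild type control livers, without overlap. Under restriction it was at 2.81, 3.21, 2.92, 3.09 and 2.94 in progeroid livers and 2.70, 2.84, 2.72, 2.82 and 2.67 in wild type livers, which overlapped. The difference passed on the control diet, at 0.59 ± 0.11 (adjusted p = 0.00105), and not under restriction, at 0.25 ± 0.11 (adjusted p = 0.133). Without progeroid control animal 326, which enters that test through the shared spread, its adjusted p was 0.0469. These levels are close to the floor of the array, where a fold is understated. Mmp12 and Mmp13 were each other's closest member within groups, at r = 0.564.

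Both genes carry an AP-1 site (TGACTCA or its other strand TGAGTCA), the motif bound by Fos and Jun proteins, in the 250 bases before an annotated start. These letters were found in 3 of the 23 members with a promoter in the RefSeq table, Mmp12, Mmp13 and Col6a1. Counted by promoter window, they were in 3 of the members' 25 windows (12%) and in 4.46% of 32851 windows of the same length. Both strands were searched. The match describes letters and shows no binding. The last 120 bases before the start are shown for the 2 neighbouring genes because both rose on the control diet, with the motif in capitals. They are from RefSeq, build GRCm38.p6, plus strand, at chr9:7347254-7347373 for Mmp12 (1 of 2 annotated starts, the other having no match) and chr9:7272394-7272513 for Mmp13.
Mmp12: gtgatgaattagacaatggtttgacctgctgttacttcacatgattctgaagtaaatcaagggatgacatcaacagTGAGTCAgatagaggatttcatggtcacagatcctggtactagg
Mmp13: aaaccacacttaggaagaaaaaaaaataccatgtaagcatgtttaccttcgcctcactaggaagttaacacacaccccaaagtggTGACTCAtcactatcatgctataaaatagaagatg

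Mmp2, the gelatinase that cuts type IV collagen and denatured collagen, rose on both diets. It was at 5.33, 5.17, 5.32, 5.74 and 5.02 in progeroid restricted livers, against 5.02, 4.76, 4.49, 4.55 and 4.54 in wild type restricted livers, where animal 421 touched the lowest progeroid value. It was at 5.02, 5.38, 5.22, 5.54 and 5.46 in progeroid control livers, against 4.74, 4.59, 4.98, 4.64 and 4.92 in wild type control livers, without overlap. The differences were 0.55 ± 0.13 on the control diet (adjusted p = 0.00775) and 0.64 ± 0.13 under restriction (adjusted p = 0.00148), or 0.73 there without animal 421 (adjusted p = 0.000476). Restriction gave -0.01 ± 0.13 in progeroid and -0.10 ± 0.13 in wild type livers, and neither passed.

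Mmp14, the membrane-bound protease that activates the Mmp2 precursor, rose with restriction in both genotypes. In progeroid livers it was at 7.96, 7.75, 7.64, 7.82 and 7.61 with restriction, against 6.93, 6.89, 7.44, 7.05 and 7.06 on the control diet. In wild type livers it was at 8.09, 7.81, 8.44, 8.28 and 8.05 with restriction, against 7.25, 7.27, 7.32, 6.69 and 7.79 on the control diet. Each restricted liver was above every control-fed liver of its genotype. Mmp14 rose by 0.68 ± 0.15 in progeroid (adjusted p = 0.00586) and by 0.87 ± 0.15 in wild type livers (adjusted p = 0.000335), or 1.61-fold and 1.82-fold. The diet effects differed by -0.18 ± 0.22 (95% interval -0.63 to 0.27, adjusted p = 0.759). Between genotypes it was -0.19 ± 0.15 on the control diet and -0.38 ± 0.15 under restriction, where it did not pass (adjusted p = 0.1). It passed there without wild type control animal 404 (adjusted p = 0.0466), with the compared groups alone (adjusted p = 0.0384) and with median-centred arrays (-0.55, adjusted p = 0.00791). A second Mmp14 probe set, at a mean level of 4.64, gave 0.48 in progeroid (adjusted p = 0.119) and 0.50 in wild type livers (adjusted p = 0.0621).

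Among the inhibitors of metalloproteinases, Timp3 likewise rose with restriction in both. Timp3 stays bound to the matrix and also inhibits Adam17, the enzyme that sheds tumour necrosis factor. It was at 7.59, 7.96, 7.97, 7.52 and 7.60 in progeroid restricted livers, against 7.16, 7.19, 7.10, 7.23 and 7.10 in progeroid control livers. In wild type livers it was at 8.16, 7.79, 8.01, 8.05 and 7.88 with restriction, against 7.23, 7.04, 6.94, 7.30 and 6.80 on the control diet. The restricted and control values of a genotype did not overlap. The rise was 0.57 ± 0.10 in progeroid (adjusted p = 0.00109) and 0.91 ± 0.10 in wild type livers (adjusted p = 2.52e-06), or 1.49-fold and 1.88-fold. The difference between these effects was -0.34 ± 0.15 (95% interval -0.64 to -0.04), not past the threshold (adjusted p = 0.286). Of 4 Timp3 probe sets, 3 rose with restriction in both genotypes, and the dimmest gave 0.23 in progeroid and 0.14 in wild type livers. One of them was lower in progeroid than in wild type restricted livers, by 0.33 on the log2 scale (-0.33, adjusted p = 0.0489). Adam17 fell with restriction, at -0.38 ± 0.08 in progeroid (adjusted p = 0.00209) and -0.49 ± 0.08 in wild type livers (adjusted p = 9.01e-05).

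Mmp14 and Timp3 are the members that rose with restriction in both genotypes, and the last 120 bases before their starts are shown for that reason. Capitals mark the GC box (GGGCGG or its other strand CCGCCC), the motif bound by Sp1, 2 copies of which stand side by side in Mmp14. It stood within 250 bases before a start in 14 of the 23 members in the table. Counted by promoter window, it stood in 15 of their 25 windows (60%) and in 32.7% of all 32851 windows. The sequences are from RefSeq, build GRCm38.p6, plus strand, at chr14:54431478-54431597 for Mmp14 and chr10:86300292-86300411 for Timp3.
Mmp14: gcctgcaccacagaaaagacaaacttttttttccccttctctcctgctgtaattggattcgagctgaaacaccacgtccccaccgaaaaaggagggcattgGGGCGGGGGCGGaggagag
Timp3: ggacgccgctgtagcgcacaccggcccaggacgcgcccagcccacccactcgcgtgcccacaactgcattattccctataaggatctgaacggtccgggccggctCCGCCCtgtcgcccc

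Timp1, the inhibitor induced in fibrosis, was near the floor, with 3.52 ± 0.09 in progeroid restricted, 3.49 ± 0.22 in progeroid control, 3.35 ± 0.13 in wild type restricted and 3.42 ± 0.07 in wild type control livers. It passed in no contrast, and its genotype difference on the control diet was 0.06 ± 0.09 (95% interval -0.12 to 0.25). Timp2, which takes part with Mmp14 in the activation of Mmp2, gave 0.22 ± 0.15 on the control diet and 0.31 ± 0.15 under restriction. Neither passed over all animals; the restricted difference passed without progeroid animal 362 (0.43, adjusted p = 0.044), and 1 of its other 4 probe sets was higher in progeroid restricted livers by 0.47 (adjusted p = 0.0252).

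**Figure D3:**
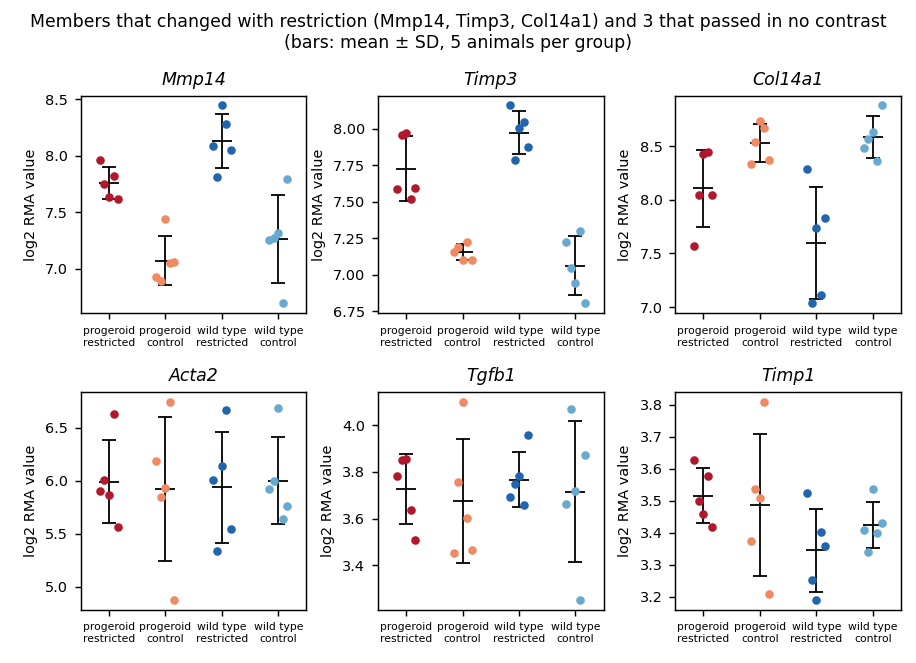
Log2 RMA values of 6 genes in every liver (points) with group mean and SD (bars), 5 animals per group. Mmp14 and Timp3 are higher in the restricted group of each genotype without overlap, Col14a1 is lowest in wild type restricted livers, and the groups of Acta2, Tgfb1 and Timp1 overlap throughout.

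The genes of the stellate cell itself did not move as one. Acta2, the smooth muscle actin of myofibroblasts and vessel walls, averaged 5.99 ± 0.39 in progeroid restricted, 5.92 ± 0.68 in progeroid control, 5.94 ± 0.52 in wild type restricted and 6.0 ± 0.41 in wild type control livers. Its single livers ranged from 4.88 to 6.75 within the progeroid control group alone. The genotype difference was -0.08 ± 0.29 on the control diet, and the 95% interval of -0.69 to 0.52 covers differences of either sign. Under restriction it was 0.05 ± 0.29, while a second Acta2 probe set, at a mean level of 3.09, was lower in progeroid restricted livers (-0.21, adjusted p = 0.0415 over all probe sets). Desmin (Des), the filament of quiescent rodent stellate cells and of muscle, differed by 0.05 ± 0.08 on the control diet and 0.02 ± 0.08 under restriction, with a 95% interval of -0.11 to 0.22 on the control diet. Pdgfrb, the receptor for platelet-derived growth factor on stellate cells, gave 0.16 ± 0.11 and 0.12 ± 0.11 on the control and restricted diets, and neither passed.

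Vim was the exception among the filament genes. Vimentin is the intermediate filament of mesenchymal cells, white blood cells and endothelium. It was at 8.80, 9.17, 9.43, 9.28 and 9.08 in progeroid restricted livers, against 8.94, 7.90, 7.84, 7.77 and 8.05 in wild type restricted livers. On the control diet it was at 8.94, 9.16, 9.18, 9.30 and 8.69 in progeroid and 8.58, 8.21, 8.51, 8.32 and 8.70 in wild type livers. Of the restricted wild type livers 4 lay below every progeroid value, and the fifth, animal 421, was within them. The difference was 1.05 ± 0.18 under restriction (adjusted p = 0.000345), a 2.07-fold rise that 3 probe sets shared, and 1.26 without animal 421. On the control diet it was 0.59 ± 0.18 (adjusted p = 0.0372), a call lost when any one of 7 animals was left out (adjusted p between 0.0522 and 0.0967). It was also lost with the mean of its probe sets (0.60, adjusted p = 0.0737), without suffixed probe sets (0.52, adjusted p = 0.153) and with all probe sets adjusted together (adjusted p = 0.0512). Restriction gave -0.36 ± 0.18 in wild type livers (adjusted p = 0.164), and without animal 421 it gave -0.57 (adjusted p = 0.00343). The difference of its diet effects was 0.46 ± 0.25 (adjusted p = 0.431), and 0.67 without that animal (adjusted p = 0.05002).

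Lrat makes the retinyl esters that stellate cells store. It was at 8.38, 8.57, 7.97, 8.24 and 8.17 in progeroid control livers, against 7.76, 7.75, 7.99, 7.80 and 7.64 in wild type control livers, with overlap at a single progeroid animal, 325. Under restriction it was at 7.73, 7.95, 8.47, 7.94 and 8.10 in progeroid and 8.04, 7.56, 7.70, 7.31 and 8.06 in wild type livers, which overlapped. The control diet difference of 0.48 ± 0.14 passed (adjusted p = 0.0352), and it missed the threshold when any one of 7 animals was left out (adjusted p between 0.0563 and 0.0985), with median-centred arrays (0.38, adjusted p = 0.0529) or with the Gapdh difference between 3' and 5' probe sets as a covariate (0.53, adjusted p = 0.061). That sign of RNA quality averaged 0.93 in control-fed progeroid livers, against 0.66 in control-fed wild type livers. Reelin (Reln), a secreted glycoprotein of stellate cells in the liver, averaged 9.49 ± 0.30 in progeroid restricted, 9.79 ± 0.25 in progeroid control, 9.47 ± 0.25 in wild type restricted and 9.57 ± 0.22 in wild type control livers and passed in no contrast.

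**Figure D4:**
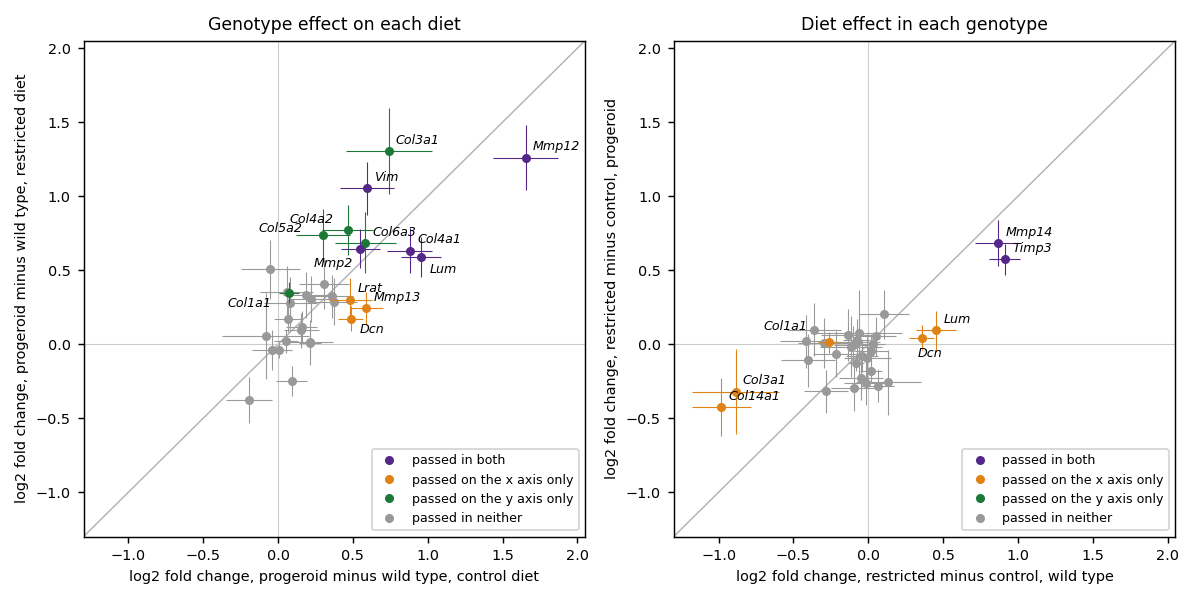
Log2 fold change of the 32 genes with its SE (bars) on one axis against the other. On the left the genotype effect on the control diet (x) is set against that on the restricted diet (y), and on the right the diet effect in wild type (x) against that in progeroid livers (y), with the line of equal effects. Mmp12, Lum, Col4a1, Mmp2 and Vim passed on both diets, and Mmp14 and Timp3 in both genotypes.

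The group means compared on the 2 diets have no arrays in common, but the tests share their estimate of the spread and the arrays share their processing. Mmp12, Lum, Col4a1, Mmp2 and Vim rose in progeroid livers on both diets. Dcn, Mmp13 and Lrat passed on the control diet alone, and Col1a1, Col3a1, Col5a2, Col4a2 and Col6a3 on the restricted diet alone. For none of these did the test of the difference between diets pass, so the diet is not shown to set which of them rose. Of the 32 members 15 passed in no contrast: Col1a2, Col5a1, Col6a2, Bgn, Eln, Lox, Loxl1, Sparc, Tgfb1, Timp1, Timp2, Acta2, Des, Pdgfrb and Reln. Of all 32, 9 had every group mean under 5 on the log2 scale, and their mean levels lay between the 3.25 and 47.3 percentiles of all genes: Col1a1, Col1a2, Eln, Lox, Loxl1, Tgfb1, Mmp13, Timp1 and Des.

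Some markers of resident macrophages were higher in progeroid livers as well, more of them under restriction than on the control diet. The Kupffer cell is the resident macrophage of the liver sinusoid. Among 12 Kupffer cell markers 2 (16.7%) were higher in progeroid livers on the control diet and 9 (75%) under restriction. Their differences ran from -0.404 to 0.896 on the control diet, with 2 negative. Under restriction the range was -0.359 to 1.2, with 1 negative. Over all genes 6.70% were higher and 4.32% lower on the control diet, and 11.8% and 5.44% under restriction. With restriction 1 marker (8.33%) rose in progeroid livers, against 6.94% of all genes. In wild type livers 3 (25%) fell with it, against 12.6%. The same shares of all genes apply to the list counts that follow. The mean deviation of the 12 from the wild type control mean ranged from 0.105 to 0.896 in progeroid restricted livers, from -0.0225 to 0.62 in progeroid control livers, from -0.627 to -0.0483 in wild type restricted livers and from -0.19 to 0.26 in wild type control livers. The Kupffer receptors Vsig4 and Clec4f were higher in progeroid control livers by 0.59 ± 0.13 (adjusted p = 0.00356) and 0.48 ± 0.13 (adjusted p = 0.017). Clec4f also fell with restriction in wild type livers, at -0.72 ± 0.13 (adjusted p = 0.000344). Over the 12 markers the effects of restriction ran from -0.935 to 0.845 in wild type livers, with 2 positive. In progeroid livers they ran from -0.363 to 1.15, with 3 positive. Of 8 markers of monocyte-derived and lipid-associated macrophages 1 was higher on the control diet, and 1 was higher and 1 lower under restriction. The higher one was Lgals3, a galectin of macrophages, at 1.07 ± 0.15 (adjusted p = 8.06e-05) and 0.78 ± 0.15 (adjusted p = 0.00111). Differences over the 8 ran from -1.18 to 1.07 on the control diet, with 5 negative. Under restriction they ran from -2.03 to 0.783, with 2 negative. The mean deviation of these 8 was -0.0189 in progeroid restricted, -0.0406 in progeroid control and 0.0488 in wild type restricted livers. RMA values have no zero, so no marker can be called absent, and the part of macrophages in the levels of Mmp12, Vim or the collagens was not tested.

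**Figure D5:**
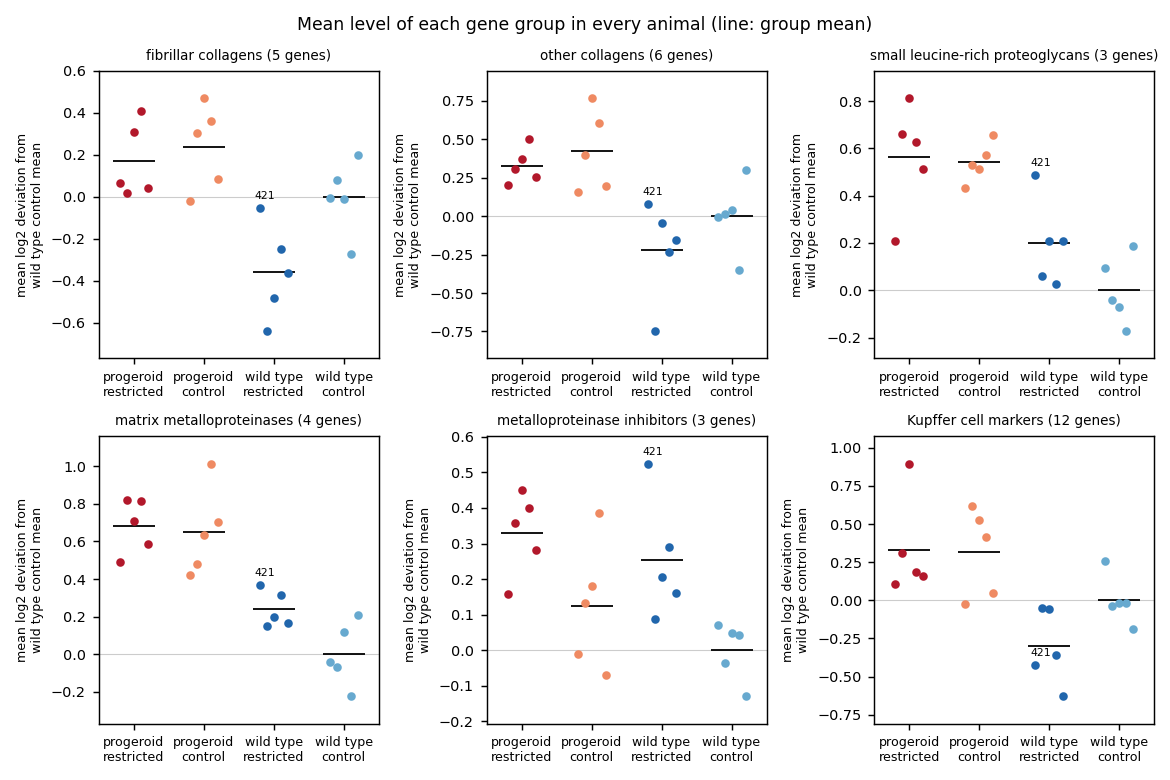
Mean deviation of 5 groups of matrix genes and of 12 Kupffer cell markers from the wild type control mean (log2) in every liver (points), with the group mean (line). Fibrillar collagens, other collagens and Kupffer cell markers are lowest on average in wild type restricted livers. Metalloproteinases are above every wild type restricted and control value in the progeroid livers. Animal 421 is labelled in each panel.

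Markers of other cells that make or hold matrix gave smaller mean deviations from the wild type control mean than Kupffer cell markers did. The Kupffer means were 0.331 in progeroid restricted and 0.317 in progeroid control livers. Livers overlapped between the lists. In progeroid restricted livers the Kupffer median was 0.185 (0.105 to 0.896). The stellate median there was 0.121 (-0.032 to 0.389), and the portal fibroblast and mesothelial median 0.118 (-0.00817 to 0.33). Of 14 further stellate cell markers 4 (28.6%) were higher and 1 (7.14%) lower in progeroid livers on the control diet. The same numbers held under restriction. Differences over the 14 ran from -0.279 to 0.609 on the control diet, with 5 negative and a median of 0.0886. Under restriction the range was -0.389 to 0.506, with 4 negative and a median of 0.135. The highest of them was Rgs5, a gene of pericytes and stellate cells. It was higher in progeroid livers by 0.61 ± 0.09 on the control diet (adjusted p = 0.000135) and 0.51 ± 0.09 under restriction (adjusted p = 0.000581). The mean deviation of the stellate list was 0.153 in progeroid restricted, 0.129 in progeroid control and 0.0218 in wild type restricted livers. Of 12 portal fibroblast and mesothelial markers 3 (25%) were higher in progeroid livers on the control diet and 2 (16.7%) under restriction. Among them was Entpd2, an ectonucleotidase of portal fibroblasts, at 0.48 ± 0.12 (adjusted p = 0.0142) and 0.80 ± 0.12 (adjusted p = 0.000128). Of 9 smooth muscle markers 1 (11.1%) passed on each diet, Tpm1, at 0.56 ± 0.09 and 0.61 ± 0.09 higher in progeroid livers. Of 12 sinusoidal endothelial markers 1 (8.33%) was lower on the control diet and 1 (8.33%) higher under restriction. The 5 bile duct markers differed by -0.0146 to 0.247 on the control diet. Their part in the changes of the matrix genes was not tested.

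Among matrix genes outside the list Postn stood out in size. Periostin (Postn), a secreted protein that helps to assemble collagen, was higher in progeroid livers, with 7.84 against 6.61 in wild type livers on the control diet and 8.14 against 6.49 under restriction. These differences of 1.23 ± 0.12 and 1.65 ± 0.12 had adjusted p-values of 8.07e-07 and 1.21e-08. Postn was 1 of 3 genes (12%) higher among 25 other matrix glycoproteins and proteoglycans on the control diet. Under restriction 6 (24%) were higher, and 0 were lower on either diet. Of 22 collagens outside the list 1 was higher and 1 lower on the control diet, and 2 were higher and 2 lower under restriction. The control diet counts were 4.55% each, against 6.70% and 4.32% of all genes. Those under restriction were 9.09% each, against 11.8% and 5.44%. Higher on the control diet was Col4a5, a further type IV chain, at 0.78 ± 0.18 on the control diet (adjusted p = 0.00703) and 0.80 ± 0.18 under restriction (adjusted p = 0.00368). Lower on that diet was Col5a3, another type V chain, at -0.57 ± 0.16 (adjusted p = 0.0285). Under restriction Col5a3 was higher in progeroid livers, by 0.53 ± 0.16 (adjusted p = 0.0281), and it fell with restriction by 1.50-fold in progeroid (-0.59 ± 0.16) and by 3.22-fold in wild type livers (-1.69 ± 0.16). That difference between diet effects passed, at 1.10 ± 0.23 (adjusted p = 0.0231). The 2 lower collagens under restriction, named after their values were seen, were Col27a1 at -0.86 (adjusted p = 0.0344) and Col13a1 at -0.46 (adjusted p = 0.00766).

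Of 10 basement membrane genes outside the collagens 1 (10%) was higher and 1 (10%) lower on the control diet, with a median difference of -0.0916. Under restriction 2 (20%) were higher, with a median of 0.101. Nid1, a linker of laminin and type IV collagen, was higher in progeroid livers on both diets, at 0.48 ± 0.12 (adjusted p = 0.00912) and 0.53 ± 0.12 (adjusted p = 0.00277). Lama3, a laminin chain, fell with restriction in both genotypes, by 2.39-fold in progeroid (-1.26 ± 0.13, adjusted p = 6.43e-06) and 4.00-fold in wild type livers (-2.0 ± 0.13, adjusted p = 5.18e-09). Of 16 genes that process or cross-link collagen, 1 (6.25%) was higher in progeroid livers on the control diet and 2 (12.5%) under restriction. With restriction 3 of the 16 (18.8%) fell in progeroid and 5 (31.2%) in wild type livers, against 5.07% and 12.6% of all genes. Higher with restriction were 0 and 1. Tgm2, a transglutaminase that cross-links matrix proteins, was among those that fell in both, at -0.65 ± 0.12 in progeroid (adjusted p = 0.000928) and -0.56 ± 0.12 in wild type livers (adjusted p = 0.00133).

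Tgfb1 itself passed nowhere. Of 18 other genes of its pathway 4 (22.2%) were higher and 1 (5.56%) lower in progeroid livers on the control diet. Under restriction 5 (27.8%) were higher and 3 (16.7%) lower. Tgfbr2, the receptor that binds the ligand, was higher in progeroid livers by 0.48 ± 0.11 on the control diet (adjusted p = 0.00509) and 0.34 ± 0.11 under restriction (adjusted p = 0.0329). It also rose with restriction, by 0.54 ± 0.11 in progeroid (adjusted p = 0.00212) and 0.68 ± 0.11 in wild type livers (adjusted p = 9.98e-05). Bambi, a decoy receptor that dampens the signal, was higher in progeroid livers by 0.69 ± 0.12 (adjusted p = 0.00047) and 0.40 ± 0.12 (adjusted p = 0.0214) on the 2 diets. Of 10 growth factors and chemokines tied to fibrosis 1 (10%) was higher and 1 (10%) lower on the control diet. They were Ccl2 at 0.57 ± 0.09 (adjusted p = 0.000398) and Cxcl12 at -0.32 ± 0.09 (adjusted p = 0.0286). Of 17 other proteases and plasminogen genes 2 (11.8%) were higher and 1 (5.88%) lower on the control diet. The lower was Reck, a membrane-anchored inhibitor of metalloproteinases, at -0.75 ± 0.18 (adjusted p = 0.00839).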

How the data were processed

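Liver RNA of 20 mice in 4 groups of 5 was measured on Affymetrix arrays, and groups were taken from the sample labels, which name separate animals and give no batch. Each deposited value is a log2 intensity summary from RMA per the submitters' processing notes. Which RMA version and probe set definition were used is not given in the sources used here. All arrays are set to one distribution by RMA, which removes a shift shared by most genes, and its values have no zero. The table holds 45141 probe sets with values from 2.19 to 14.51; array medians over all of them lay between 4.17 and 4.21, and pairs of arrays correlated between 0.979 and 0.997. Precision is limited by how many arrays there are.

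Gene symbols came from the platform annotation, checked by Entrez ID against RefSeq genes of GRCm38.p6 (28689 of 28898 found, 0 symbols changed); 551 probe sets with several symbols, 15588 without one and 104 controls were not used for genes. For 17097 genes, each at its brightest probe set, a model with 4 group means was fitted over the 20 arrays (limma 3.58.1, R 4.3.3). Of this fit 6 contrasts were taken, each two-sided with Benjamini-Hochberg adjustment over all genes; the fit was tested on simulated data. Intervals are 95% intervals of the moderated fit, unadjusted. The members, the role groups and the other lists were chosen with earlier results of these data known, so no test over a list was made. All members are named; of other lists, up to 2 genes with the smallest adjusted p among those past the threshold in the control diet genotype contrast or the progeroid diet contrast could be named. Likeness of members is Pearson's r of deviations from group means, with no p. The Gapdh probe set near the 3' end minus that near the 5' end, a sign of RNA quality, averaged 0.81 ± 0.24 in progeroid restricted, 0.93 ± 0.28 in progeroid control, 0.76 ± 0.12 in wild type restricted and 0.66 ± 0.06 in wild type control livers. Alternatives were centring each array on its median over the 17097 genes (5.11 to 5.38), the mean of probe sets, no suffixed probe sets, no dim genes, a trended robust fit, array weights, the Gapdh difference as covariate, adjustment over all probe sets, the compared groups alone, and each animal left out in turn.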

Additional observations from a re-analysis of the deposited data

Results flagged for a closer look

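A value that stood apart from the other 4 of its group by Dixon's test was found in 4 of the 128 groups formed by 32 genes and 4 conditions; chance alone flags about 5% of groups. Vim was at 8.94 in wild type restricted animal 421, and the nearest of the other livers was at 8.05. Col6a3 was at 5.24 in wild type restricted animal 422, below the next at 6.08. Col4a1 was at 8.12 in progeroid restricted animal 368, above the next at 7.89. Col1a2 was at 3.06 in progeroid control animal 325, above the next at 2.91, within a level near the floor of the array. The first of these enters all 3 contrasts that use wild type restricted livers, and the values of Vim without that animal were 1.26 for genotype under restriction, -0.57 for diet in wild type livers and 0.67 for the difference of diet effects (adjusted p = 0.05002).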

How the results depend on the processing

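There were 39 results, each a named gene in a contrast where it passed. Of these 29 kept their call with any animal left out and under each of the 9 other settings that tested them. The setting without dim genes tested 35, as the results of Col1a1 and Mmp13 drop out there. None of the 39 turned its sign. Centring each array on its median over the 17097 genes kept 33 of them. It moves all genotype differences down, by 0.103 on the control diet and 0.172 on the restricted diet. The comparison of restricted progeroid with control-fed wild type livers moves down by 0.137. Over all genes centring turns 1145 higher and 738 lower calls into 764 and 2798 on the control diet. Under restriction it turns 2018 and 930 into 1158 and 6513. For restricted progeroid against control-fed wild type livers it turns 2369 and 1973 into 1465 and 6621. Members lower in progeroid livers under restriction were then 3 in place of 0, 1 without suffixed probe sets (Acta2) and 1 with the compared groups alone (Mmp14). For restricted progeroid against control-fed wild type livers centring gave 7 higher and 2 lower members, and the compared groups alone gave 1 lower (Col14a1). With each animal left out in turn the members higher on the control diet numbered 6 to 10 and those lower 0 to 0. On the restricted diet 9 to 14 were higher (14 without animal 362) and 0 to 1 lower. With restriction 2 to 2 rose and 0 to 0 fell in progeroid livers, and 3 to 4 rose and 2 to 4 fell in wild type livers. The difference of diet effects passed for 0 to 0 in either direction, and the last comparison had 7 to 12 higher and 0 to 1 lower. The cause of these changes was not tested. No paired analysis was possible because the animal numbers are not shared between groups. Low signal limits what can be seen of the 9 members with every group mean under 5.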
